A study of Arabidopsis thaliana with 18 samples.

Results

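A group of 29 probe sets was at least 2-fold lower on the first 3 arrays of Arabidopsis thaliana plants treated with salicylic acid (SA) than on the first 3 arrays of plants treated with the surfactant alone. A probe set is the group of short probes that measures one transcript on the Affymetrix ATH1 array. The 29 were taken from 22746 non-control probe sets, which is 34 that met the rule less 5 cell wall and lipase genes left out by name. No chloroplast-encoded probe set met the rule. Of the 29, 16 name 1 gene, all 16 on a nuclear chromosome, 1 names several genes and 12 are unnamed here. None of the 29 has a probe set number inside the range of the 69 annotated chloroplast-encoded probe sets.

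All plants were of the accession Col-0, and the 18 arrays fall into 6 groups of 3. SA arrays 10 to 12, 13 to 15 and 16 to 18 came from plants that received SA at 0.30 mM, dissolved in 0.02% of the surfactant silwet. Silwet arrays 1 to 3, 4 to 6 and 7 to 9 came from plants that received the surfactant alone at the same 0.02%, so both treatments share the surfactant. The groups of 3 were read from the array numbers in the titles, each group holding replicates 1, 2 and 3. The labels used here give no time, tissue or plant age, so the groups of 3 are called the first, the second and the third groups, by array number. The later groups are the second and the third, and their order in time is not known. The labels do not say whether replicates came from separate plantings. The spread behind each p-value is that between these arrays and may be technical. In RNA from many cells together, fewer cells of a type and less RNA per cell cannot be told apart.

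SA is the hormone of defence against pathogens that feed on living tissue, and it acts through the NPR family of receptors and their partner transcription factors. Plants that mount an SA response are known to curb growth, and the wall-loosening enzymes that let leaf cells expand are among the genes often lower when defence is on. Pectin, a gel of the cell wall, is cut by pectate lyases and polygalacturonases, while expansins and xyloglucan endotransglucosylases loosen its cellulose and xyloglucan network.

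The members were chosen by the values on SA arrays 10 to 12 and silwet arrays 1 to 3, so the first comparison is a description with no test. A value below an array's own 20th percentile was raised to it, log2 was taken, and a probe set was a member when its highest SA value lay at least 1 below its lowest silwet value. The 34 that met this are 0.149% of all probe sets. The mirror rule, SA at least 1 above silwet, was met by 63. The 2 sets of arrays also differed over the whole array: 28.6% of probe sets had all 3 SA values below all 3 silwet values and 8.62% had them above, and the median difference over all probe sets was -0.19. The members' median difference was -1.54, with a range of -2.76 to -1.24. The median signal of an array was 29.7 to 36.3.

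SA array 10 stands apart in its actin and GAPDH RNA controls but not in that of ubiquitin. Its log2 ratio of the 3 prime over the 5 prime actin probe set was 6.85, against 0.15 to 1.51 on the other 17 arrays, and its GAPDH ratio was 3.36, against -0.06 to 1.32. Its ubiquitin ratio was 0.93, within the 0.11 to 1.06 of the other 17 arrays. Every one of the 29 members is kept when array 10 is left out, which follows from the rule, since each of the 3 SA arrays had to be low on its own. Without array 10 the rule finds 79 probe sets, the 29 and 50 more. The median difference of the 29 was -1.54 without array 10, with a range of -2.93 to -1.22. With the floor, the lowest of the 3 SA values was on array 10 for 9 members, on array 11 for 9 and on array 12 for 11. The floors of arrays 10, 11 and 12 were 2.13, 2.39 and 2.40. For AT3G61920, TBL19, 260623_at and AT1G74580 array 10 was lowest only because of these floors, and the deposited signal was lowest on array 11 or 12. Array 10 lay between 0.90 below and 0.92 above the mean of arrays 11 and 12, with a median of 0.09 above. These counts and differences come from the values that chose the members. A probe set low on array 10 alone could not enter, so they cannot show how the RNA of array 10 bears on the members, which was not tested.

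**Figure D1:**
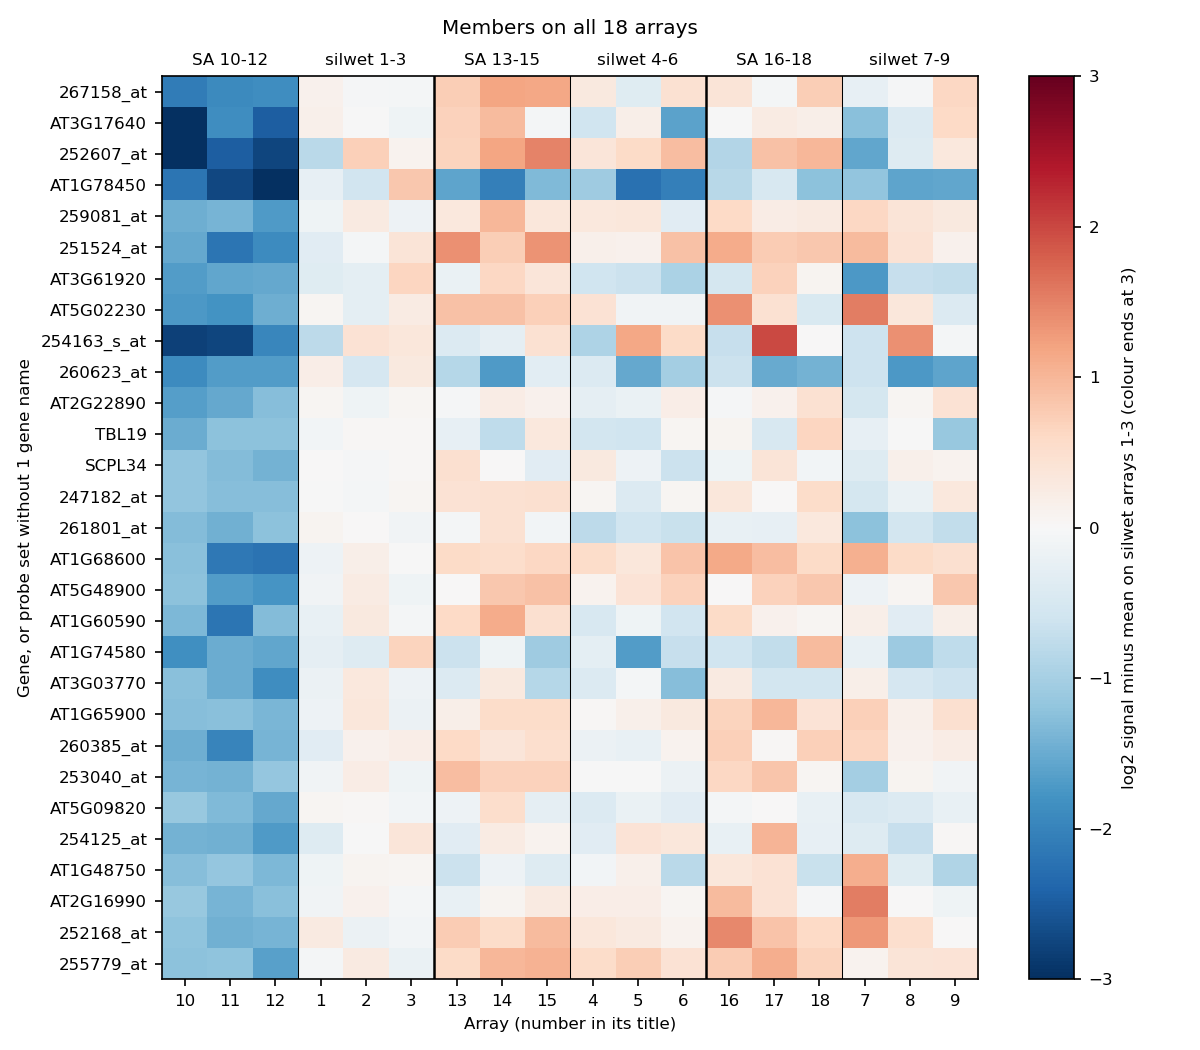
Log2 signal of the 29 members (rows) on the 18 arrays (columns, SA left of silwet within the first, the second and the third groups), each row drawn as the difference from its own mean on silwet arrays 1 to 3. The first 3 columns are low in every row by choice of the members, and most rows are not low on SA arrays 13 to 18. Among those that are, AT1G78450 has 4.87, 4.41 and 5.13 on SA arrays 13 to 15, against its silwet mean of 6.46. The row of 260623_at is at the floor on SA arrays 11, 12, 14, 17 and 18 and on silwet arrays 8 and 9.

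Of the named genes closest to the threshold, AT2G16990, AT1G48750 and AT5G09820 lay just inside it, with gaps of 1.0223, 1.0342 and 1.0457 between their lowest silwet and highest SA value. Just outside lay AT3G15570, AT5G01015 and DRT100, with gaps of 0.9998, 0.9882 and 0.9786.

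Among the members with a known role in the cell wall, AT5G48900 and AT1G60590 belong to the enzymes that cut pectin. AT5G48900, a pectate lyase gene, had a log2 signal of 6.06, 5.63 and 5.52 on SA arrays 10, 11 and 12, against 7.20, 7.54 and 7.16 on silwet arrays 1, 2 and 3. The mean difference was -1.56, and array 10 was the highest of the 3 SA arrays. The second groups had 7.30, 8.11 and 8.18 with SA, against 7.40, 7.70 and 7.99 with silwet. It had 7.32, 7.98 and 8.12 on SA arrays 16 to 18, against 7.14, 7.37 and 8.10 on silwet arrays 7 to 9. Both later comparisons overlapped, and the replicate 1 array was the lowest in all 4 later groups. The later differences were 0.17 and 0.27 (limma, standard error 0.30 for each, adjusted p = 0.970 and 0.765).

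AT1G60590, a gene of the polygalacturonase family, lay above the silwet level on the second arrays. Its log2 signal was 4.42, 3.58 and 4.46 on SA arrays 10 to 12, against 5.55, 6.06 and 5.71 on silwet arrays 1 to 3. It was 6.36, 6.89 and 6.24 on SA arrays 13 to 15, against 5.28, 5.65 and 5.19 on silwet arrays 4 to 6. All 3 SA values there were above all 3 silwet values, by more than the spread within either group (mean 6.49 ± 0.35 on SA arrays, against 5.37 ± 0.25 on silwet arrays; SD, n = 3 each). The difference of 1.12, a 2.17-fold higher signal, had a standard error of 0.24 and the smallest p of any member (limma, unadjusted p = 0.000384), but did not pass over all probe sets (adjusted p = 0.182). On SA arrays 16 to 18 it was 6.35, 5.89 and 5.84, against 5.95, 5.43 and 5.95 on silwet arrays 7 to 9, and these groups overlapped.

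TBL19 belongs to a family whose studied members add acetyl groups to wall polysaccharides. Its log2 signal was 2.13, 2.39 and 2.40 on SA arrays 10 to 12, all 3 of them at the floor of their array, so the size of the difference, -1.31, depends on the floor. On silwet arrays 1 to 3 it had 3.54, 3.66 and 3.65. It was 3.38, 2.86 and 3.93 on SA arrays 13 to 15 and 3.06, 3.03 and 3.68 on silwet arrays 4 to 6, which overlap. The third groups also overlapped, at 3.70, 3.15 and 4.26 with SA and 3.38, 3.60 and 2.48 with silwet, where array 9 was at its floor.

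Other wall genes were counted from lists of gene families, none of whose named probe sets is a member. Of 19 expansin probe sets, 10 had all SA values below all silwet values in the first groups (52.6%, against 28.6% of all probe sets), 0 had them above, and the median difference was -0.40. The summed signal of the 19 was 374 to 475 on SA arrays 10 to 12, against 596 to 758 on silwet arrays 1 to 3. It was 824 to 1045 on SA arrays 13 to 15, against 765 to 896 on silwet arrays 4 to 6. Of 10 xyloglucan endotransglucosylase probe sets, 3 lay wholly below in the first groups, a share close to that of all probe sets, and their median difference was -0.35. Of 8 cellulose and hemicellulose probe sets, 2 lay wholly below and 1 above. The family symbols sought for pectin enzymes matched 5 probe sets, among them PGL34, which is a plastoglobulin gene and not a pectin enzyme. The 5 were split, 2 below and 2 above, with a median difference of 0.33, so these values do not describe pectin enzymes alone. None of these 4 lists had a probe set past the threshold in limma in either direction in the second or the third groups.

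A further set of members has known roles in lipids, plastids and transport. AT2G22890 is a relative of a plastid fatty acid desaturase gene. It had 3.10, 3.22 and 3.48 on SA arrays 10 to 12, against 4.82, 4.62 and 4.81 on silwet arrays 1 to 3, a difference of -1.49. It stood at 4.72, 4.97 and 4.87 on SA arrays 13 to 15, against 4.49, 4.55 and 4.96 on silwet arrays 4 to 6. The later groups overlapped, and both later differences were 0.19 (standard error 0.26).

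AT5G09820 encodes a fibrillin, a plastid protein tied to lipid bodies and prenylquinones. Its log2 signal was 5.49, 5.30 and 5.09 on SA arrays 10 to 12, against 6.68, 6.65 and 6.53 on silwet arrays 1 to 3. On SA arrays 13 to 15 it was 6.46, 7.14 and 6.35, against 6.22, 6.41 and 6.27 on silwet arrays 4 to 6, with array 14 the highest of all 18. The later differences were 0.35 and 0.28, each with a standard error of 0.20, and neither passed (limma, adjusted p = 0.970 and 0.593). AT1G48750, of the lipid transfer protein superfamily, had 5.19, 5.29 and 5.12 on SA arrays 10 to 12, against 6.33, 6.55 and 6.51 on silwet arrays 1 to 3. It was 5.81, 6.30 and 6.08 on SA arrays 13 to 15 and 6.38, 6.61 and 5.65 on silwet arrays 4 to 6, one of 5 members whose mean was lower with SA in the second groups, here by 0.15 within overlapping values.

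AT1G68600 belongs to the family of aluminium-activated malate transporters, which carry anions across membranes. Its log2 signal was 6.65, 5.76 and 5.69 on SA arrays 10 to 12, against 7.75, 8.08 and 7.89 on silwet arrays 1 to 3. Array 10 was the least low of the 3, and the difference was -1.88 with it and -2.18 without it. On the second arrays the treatments could hardly be told apart: 8.48, 8.43 and 8.52 with SA and 8.45, 8.25 and 8.76 with silwet, -0.01 apart (limma, standard error 0.20, adjusted p = 0.995). On the third arrays it had 9.04, 8.83 and 8.48 with SA and 8.98, 8.48 and 8.40 with silwet.

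AT2G16990, a gene of the major facilitator transporters, lay at 5.09, 4.82 and 4.96 on SA arrays 10 to 12, against 6.11, 6.36 and 6.17 on silwet arrays 1 to 3. It was 6.00, 6.31 and 6.48 on SA arrays 13 to 15 and 6.42, 6.41 and 6.29 on silwet arrays 4 to 6. On the third arrays it had 7.16, 6.65 and 6.19 with SA, against 7.76, 6.22 and 6.08 with silwet, highest on replicate 1 in both groups.

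The members known from leucine-rich repeat proteins, a class that holds many receptors, are AT3G17640 and AT3G03770. AT3G17640 had the widest gap of any named member, 1.74. Its log2 signal was 2.13, 3.33 and 2.72 on SA arrays 10 to 12, with array 10 at its floor, against 5.34, 5.17 and 5.06 on silwet arrays 1 to 3. The log2 difference was -2.47 with array 10, where its size depends on the floor, and -2.17 without it. On the second arrays it was 5.88, 6.15 and 5.13 with SA and 4.60, 5.36 and 3.59 with silwet, higher with SA within each replicate number but with overlapping groups. The difference of 1.21 had a standard error of 0.47 (limma, unadjusted p = 0.0245, adjusted p = 0.877). The third groups had 5.17, 5.44 and 5.36 with SA and 3.94, 4.77 and 5.78 with silwet.

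AT3G03770, a receptor-like kinase gene, had 4.75, 4.52 and 4.14 on SA arrays 10 to 12, against 5.83, 6.33 and 5.86 on silwet arrays 1 to 3. It was 5.59, 6.30 and 5.16 on SA arrays 13 to 15, against 5.61, 5.94 and 4.74 on silwet arrays 4 to 6. In both second groups replicate 2 was the highest and replicate 3 the lowest. On the third arrays the values were 6.28, 5.47 and 5.47 with SA and 6.18, 5.50 and 5.39 with silwet, 0.05 apart (standard error 0.37).

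AT1G78450, of the SOUL family of heme-binding proteins, had another pattern. Its log2 signal was 4.26, 3.73 and 3.32 on SA arrays 10 to 12, against 6.22, 5.88 and 7.27 on silwet arrays 1 to 3, a difference of -2.68. On the second arrays it was 4.87, 4.41 and 5.13 with SA and 5.39, 4.22 and 4.42 with silwet. The treatments thus lay together because the silwet mean was 1.78 lower than on silwet arrays 1 to 3, while the SA mean was 1.03 higher than on SA arrays 10 to 12. On the third arrays it was 5.63, 5.99 and 5.23 with SA, against 5.28, 4.87 and 4.91 with silwet, higher with SA within every replicate number, by 0.59 on average (limma, standard error 0.32, adjusted p = 0.465).

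AT5G02230, of the haloacid dehalogenase-like hydrolases, had 4.03, 3.96 and 4.30 on SA arrays 10 to 12, against 5.81, 5.47 and 6.01 on silwet arrays 1 to 3. On SA arrays 13 to 15 it stood at 6.64, 6.63 and 6.48, above all of silwet arrays 4 to 6 at 6.20, 5.66 and 5.65. The difference of 0.75 had a standard error of 0.46, which takes in the wide spread of the third groups (limma, adjusted p = 0.970). It had 7.12, 6.21 and 5.30 on SA arrays 16 to 18, against 7.30, 6.10 and 5.35 on silwet arrays 7 to 9, nearly the same within each replicate number. SCPL34, a serine carboxypeptidase-like gene, had 5.16, 5.04 and 4.93 on SA arrays 10 to 12, against 6.36, 6.30 and 6.37 on silwet arrays 1 to 3. Its later values overlapped, at 6.82, 6.36 and 6.01 on SA arrays 13 to 15 and 6.63, 6.19 and 5.70 on silwet arrays 4 to 6, with differences of 0.23 and 0.11 in the second and the third groups.

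AT1G74580, a pentatricopeptide repeat gene of the kind that acts on organelle RNA, was at the floor on arrays 10 and 12. It had 2.13, 2.48 and 2.40 on SA arrays 10 to 12, against 3.69, 3.58 and 4.64 on silwet arrays 1 to 3. It was dim on the later arrays too, at 3.33, 3.83 and 2.91 on SA arrays 13 to 15 and 3.67, 2.29 and 3.27 on silwet arrays 4 to 6, where array 5 was at its floor. AT3G61920, for which no role is given here, had 2.27, 2.39 and 2.40 on SA arrays 10 to 12, with arrays 11 and 12 at the floor, against 3.58, 3.65 and 4.59 on silwet arrays 1 to 3. On SA arrays 13 to 15 it had 3.75, 4.57 and 4.30, above silwet arrays 4 to 6 at 3.35, 3.30 and 2.98. On SA arrays 16 to 18 it had 3.41, 4.62 and 4.02, again above silwet arrays 7 to 9 at 2.22, 3.24 and 3.19, with array 7 at its floor.

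AT3G61920 is thus the only named member whose groups did not overlap in both later comparisons, with differences of 1.00 and 1.13 (limma, standard error 0.37 for each, adjusted p = 0.862 and 0.465). The signals are low, and on the scale of log2 of the value plus 16 the differences are smaller, 0.46 and 0.49. AT1G65900 had 4.82, 4.84 and 4.74 on SA arrays 10 to 12, against 5.94, 6.45 and 5.92 on silwet arrays 1 to 3, and its later differences were 0.26 and 0.25, each with a standard error of 0.20.

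**Figure D2:**
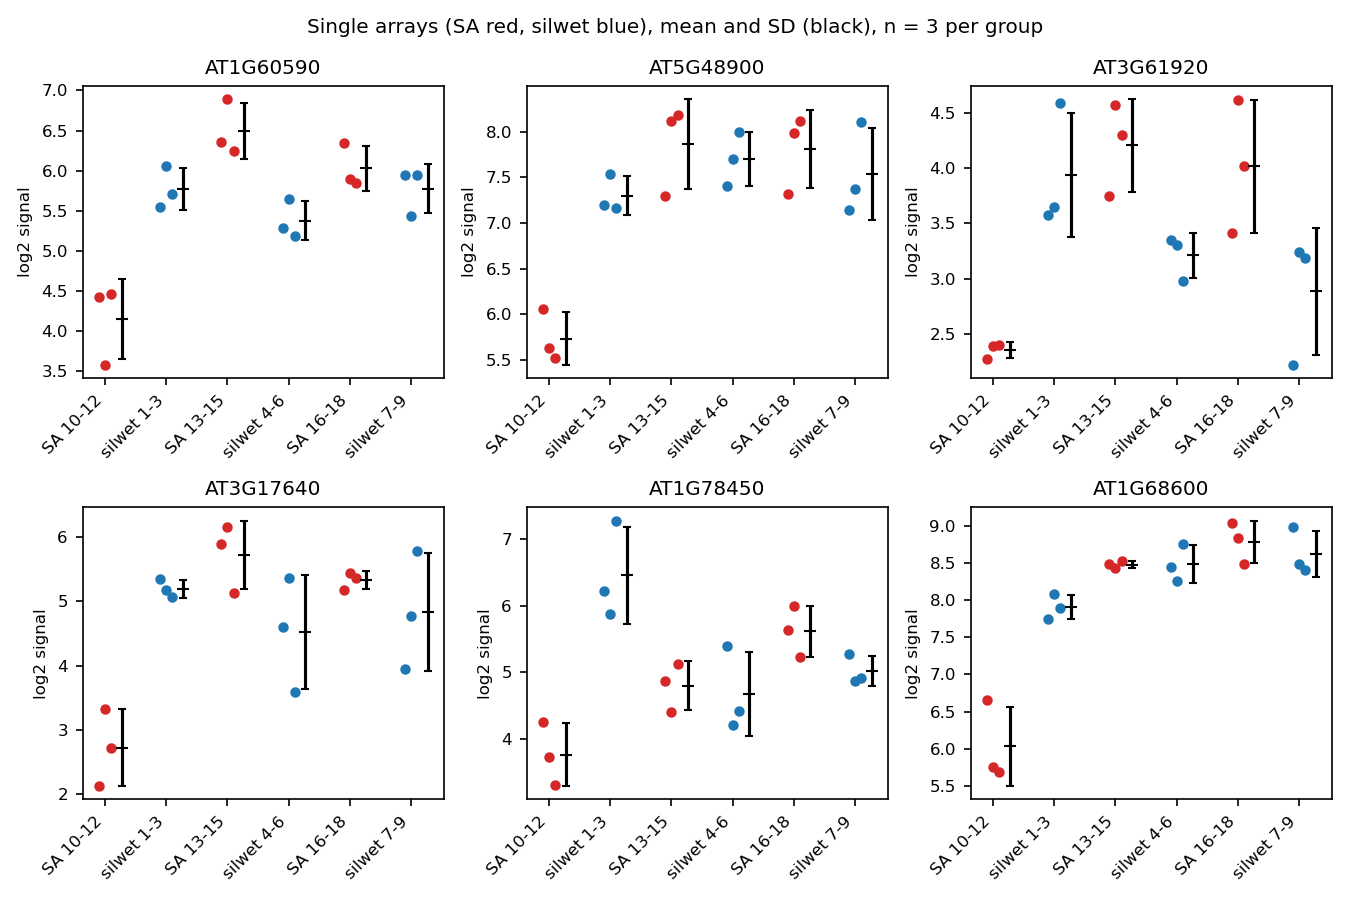
Log2 signal of 6 named members on single arrays, with the mean and SD of each group of 3. AT1G60590 and AT3G61920 lie wholly above silwet on SA arrays 13 to 15, AT5G48900 and AT1G68600 overlap with it, and AT1G78450 is lower on silwet arrays 4 to 6 than on silwet arrays 1 to 3.

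The 13 members without 1 gene name had first differences of -2.76 to -1.24. The widest gap of all 29, 1.80, belonged to 267158_at, singled out here after its values were seen, as are the other probe sets named by number. It had 4.04, 4.23 and 4.27 on SA arrays 10 to 12, against 6.25, 6.09 and 6.06 on silwet arrays 1 to 3. On SA arrays 13 to 15 it had 6.86, 7.32 and 7.29, above silwet arrays 4 to 6 at 6.42, 5.76 and 6.58, 0.90 apart (limma, standard error 0.28, adjusted p = 0.603). The largest first difference, -2.76, was that of 252607_at, at 4.79, 5.36 and 5.08 with SA and 7.02, 8.55 and 7.94 with silwet.

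The probe set 261801_at was wholly above silwet in both later comparisons. It had 7.12, 7.63 and 7.08 on SA arrays 13 to 15, against 6.39, 6.58 and 6.51 on silwet arrays 4 to 6. It had 6.94, 6.93 and 7.48 on SA arrays 16 to 18, against 5.94, 6.62 and 6.44 on silwet arrays 7 to 9. Each difference was 0.78 (standard error 0.22), and neither passed over all probe sets (limma, adjusted p = 0.452 and 0.465). Relative to silwet arrays 1 to 3 (7.25, 7.18 and 7.06) its silwet level was lower on the later arrays, while its SA level on arrays 13 to 15 was close to the first silwet level. The probe set 253040_at had 8.58, 8.33 and 8.33 on SA arrays 13 to 15, against 7.64, 7.63 and 7.47 on silwet arrays 4 to 6, 0.83 apart (standard error 0.26). The probe set 260623_at was low in all 4 later groups, with means of 3.12 with SA and 3.09 with silwet on the second arrays. On the third arrays they were 2.88 with SA and 2.76 with silwet. On silwet arrays 1 to 3 its mean was 4.07. The floor held on SA arrays 14, 17 and 18 and on silwet arrays 8 and 9, so the later means, apart from that of silwet arrays 4 to 6, depend on it. It also held on SA arrays 11 and 12, so the size of the first difference, -1.74, depends on it too. With no floor the difference was -0.16 in the second groups and -0.62 in the third groups, the other way from 0.03 and 0.12 with it. Its signal on SA arrays 17 and 18 was 2.7 and 1.6, under the 3.4 to 4.9 of SA arrays 10 to 12.

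For 28 of the 29 members the later SA arrays lay above the low level of the first, the exception being 260623_at, and 9 members lay wholly above silwet on the second arrays. SA arrays 13 to 18 and silwet arrays 4 to 9 did not choose the members and were tested with limma over all 22746 probe sets. In the second groups the mean was higher with SA for 24 of 29 members (82.8%, against 57.3% of all probe sets), with a median difference of 0.31, against 0.05 over all. In 9 of 29 members (31.0%) all 3 SA values lay above all 3 silwet values, against 4.59% of all probe sets. The background was similar, 5.06%, among the 13648 probe sets at or above the 40th percentile of mean signal. In 0 of 29 did they lie below, against 4.88% of all. The 9 are AT1G60590, AT3G61920, AT5G02230 and 6 without 1 gene name. Within replicate numbers 1, 2 and 3 the median of the members was 0.24, 0.42 and 0.43, against 0.10, 0.08 and -0.08 over all probe sets, and 20, 23 and 24 members were higher with SA.

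No single member passed the test in the second groups. In limma 0 of 29 passed at an adjusted p of 0.05, the smallest being 0.182, and 9 were higher and 0 lower at an unadjusted p under 0.05 (against 2.33% and 2.81% of all probe sets). Over all probe sets 0 were called higher and 13 lower (0.0572%). The 13 were 27 with the replicate number as a block, 1 of them higher. They were 19 without SA array 17 and 0 to 3 without any other single array of the fit. No member was among them in any of these fits.

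In the third groups 26 of 29 members were higher with SA on average (89.7%, against 60.3% of all probe sets), with a median difference of 0.27, against 0.08 over all. All SA values lay above all silwet values for AT3G61920, 261801_at and 255779_at, which is 3 of 29 (10.3%, against 5.69% of all probe sets and 4.37% of those at or above the 40th percentile), and below for 0 (against 4.53%). The medians within replicate numbers 1, 2 and 3 were 0.18, 0.36 and 0.12, against 0.09, 0.14 and 0.09 over all. In limma 0 members passed, the smallest adjusted p being 0.465, and 4 were higher and 0 lower at an unadjusted p under 0.05 (against 4.85% and 1.83% of all probe sets). Over all probe sets 0 passed in either direction in limma, with 1104 higher and 416 lower at an unadjusted p under 0.05, and 29 passed, all higher, without SA array 16. The SA difference of the third groups minus that of the second passed limma's test for 0 members and 0 probe sets. At an unadjusted p under 0.05 were 1 member, 2.04% of all probe sets in the higher direction and 0.62% in the lower.

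**Figure D3:**
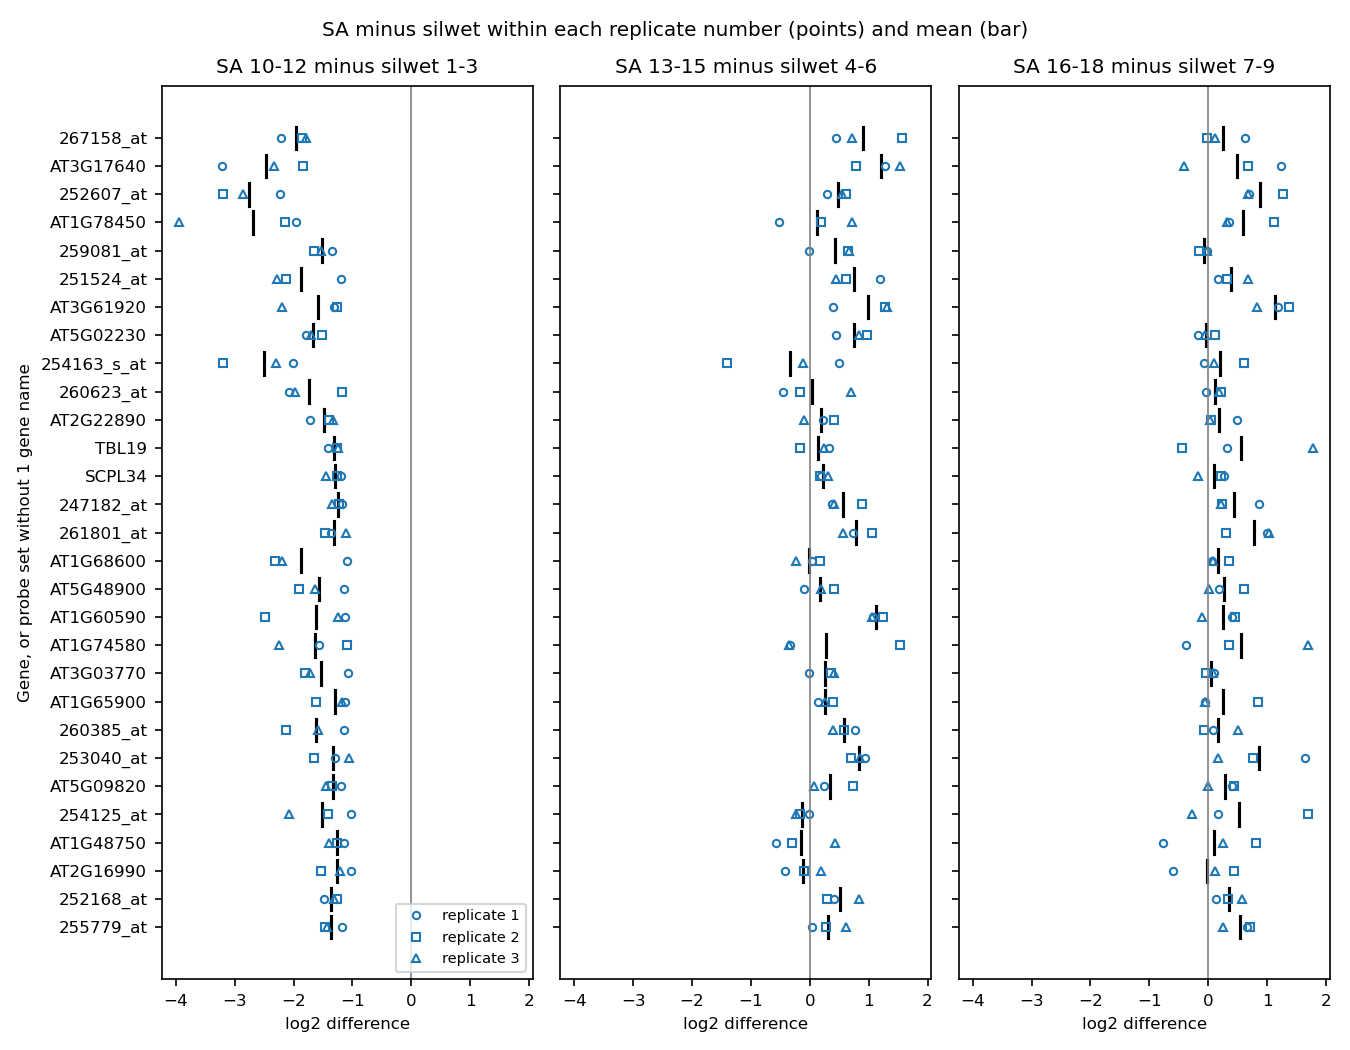
SA minus silwet for the 29 members (rows) in the first, the second and the third groups (panels), as log2 differences within replicate numbers (points) and their mean (bar). All points of the first panel lie below -1 by choice of the members, and the means of 24 and 26 members lie above 0 in the second and the third panels.

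**Figure D4:**
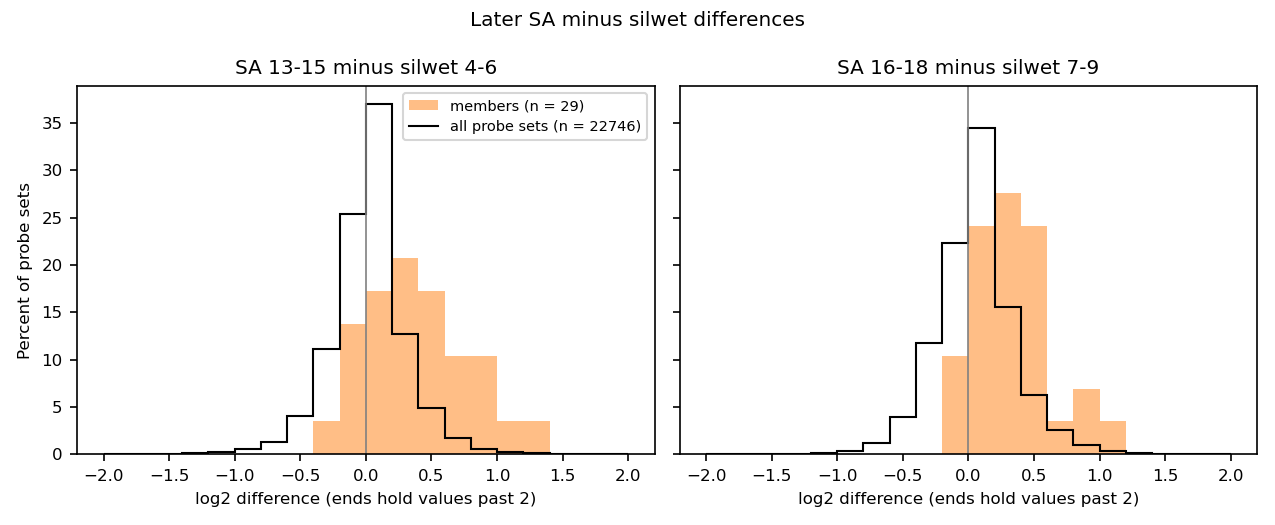
Share of probe sets by log2 difference of SA minus silwet in the second (left) and the third (right) groups, for the 29 members (filled) and all 22746 probe sets (line). The medians are 0.31 for the members and 0.05 for all on the left, and 0.27 and 0.08 on the right.

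The difference was smaller in the second groups than in the first mostly because the SA values were higher. The mean of SA arrays 13 to 15 was above that of SA arrays 10 to 12 for all 29 members, by 0.79 to 3.87 with a median of 1.85, and the 3 values lay wholly above for 28. The 0.79 is that of 260623_at, and its size depends on the floor. On the deposited signal, with no floor, SA arrays 13 to 15 lay wholly above SA arrays 10 to 12 for 28 members, and so did SA arrays 16 to 18, with 260623_at the exception in both. The mean of silwet arrays 4 to 6 minus that of silwet arrays 1 to 3 had a median of -0.08 and a range of -1.78 to 0.63. For AT1G78450 and 260623_at the silwet mean was lower by more than the SA mean was higher. These values are a description, since arrays 1 to 3 and 10 to 12 chose the members, a choice that favours high values on arrays 1 to 3 and low values on arrays 10 to 12.

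**Figure D5:**
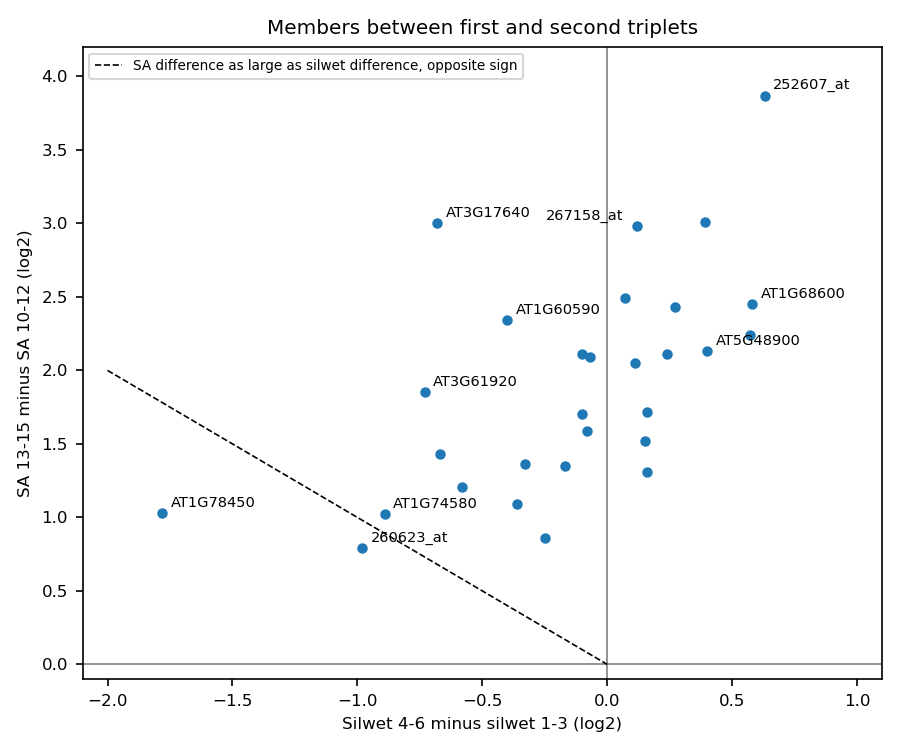
Difference of the SA means between the second and first groups (vertical) against that of the silwet means (horizontal) for the 29 members, in log2 units. All points lie above 0 on the vertical axis, and AT1G78450 and 260623_at lie below the dashed line, where the silwet difference is the larger of the 2.

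Between the second and the third groups the median difference of the members was small, while single members differed by more. SA arrays 16 to 18 minus SA arrays 13 to 15 had a median of -0.03 and a range of -0.77 to 0.81, and silwet arrays 7 to 9 minus silwet arrays 4 to 6 a median of 0.11 and a range of -1.17 to 0.43. In limma 0 members and 0 probe sets over all passed in either comparison. At an unadjusted p under 0.05, SA arrays 16 to 18 were higher than SA arrays 13 to 15 for 1 member (3.74% of all probe sets) and lower for 1 (1.81%). Silwet arrays 7 to 9 were higher than silwet arrays 4 to 6 for 0 members (2.26%) and lower for 1 (2.01%). Without SA array 16 the first of these comparisons had 24 probe sets past the threshold, and without silwet array 4 the second had 10, no member among them.

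Probe sets were found for only 3 of the 8 lists of markers of other organs and cell types, 1 for each, matched by symbol or synonym alone. For the epidermis list this was a probe set with the symbol FDH. That symbol can stand for more than 1 gene, and which one this probe set measures was not checked, so it is not read as an epidermis marker. It had a signal of 402 to 670 on SA arrays 10 to 12 and 523 to 741 on silwet arrays 1 to 3. It had 724 to 1418 on SA arrays 13 to 15 and 588 to 1368 on silwet arrays 4 to 6. The guard cell gene FMA had 33 to 42 on SA arrays 10 to 12 and 35 to 57 on silwet arrays 1 to 3, and the root gene PYK10 had 69 to 114 on SA arrays 10 to 12 and 58 to 162 on silwet arrays 1 to 3. The treatments overlapped for all 3 probe sets, and the part of cell type makeup in the members' levels was not tested.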

How the data were processed

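Total RNA of 18 samples was hybridised as biotin-labelled target, per the labels. The values that the authors deposited are intensities (linear, 1 for each probe set and array), made with MAS5 per the submitters' processing notes. Its version and a genome build are not given in the sources used here. Each array had a mean of 100.0 once its highest and lowest 2% were set aside. The table has 22810 probe sets, of which 64 are controls, and precision is limited by how many arrays there are.

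Values were raised to each array's 20th percentile (signal 4.4 to 6.7) and log2 was taken, which understates differences of dim transcripts. The members and gene lists were chosen with earlier results of these data known. The 12 later arrays, 4 groups of 3, were fitted in limma (version 3.58.1, under R 4.3.3) by lmFit and by eBayes with its trend and robust options, without a filter on dim probe sets, with Benjamini-Hochberg adjustment over 22746 probe sets and a threshold of 0.05. The fit was tested on simulated data. Summaries used Python 3.11.15.

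The rule for named genes took every member that names 1 gene, which also covers the members in gene lists and past the threshold (0 in each), and the 3 named probe sets on each side of the threshold. Gene names came from GEO's annotation of the platform, with symbols and chromosomes brought up to date from NCBI genes of TAIR10.1, matched on the Entrez identifier. Of 22810 probe sets, 13513 name 1 gene (13436 matched), 503 several and 8794 are unnamed here. The lists of arabinogalactan proteins, aquaporins and jasmonate genes had no named probe set. In the first groups, of the probe sets of the other lists, those wholly below and wholly above silwet (28.6% and 8.62% of all probe sets) were 3 and 1 of 12 (auxin), 0 and 0 of 3 (gibberellin and brassinosteroid), 0 and 0 of 1 (cuticle), 5 and 0 of 7 (nuclear photosynthesis), 2 and 0 of 2 (sulfur and glucosinolate), 2 and 1 of 13 (nitrate and iron), 2 and 1 of 16 (transcription factors) and 1 and 0 of 1 (clock). Promoter motifs were not analysed here.

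Deviations of SA and silwet arrays with the same replicate number correlated at 0.62, 0.36 and 0.47 for numbers 1, 2 and 3. Those of unlike number reached at most 0.02. They are no separate evidence, since deviations from each group's own mean push them down when the same-number correlations are positive. The numbers were taken to pair the arrays in the differences within replicate numbers and in the alternative fit with a block, a reading that no label states. The main limma fit did not use this pairing, so its standard errors and p-values are unpaired. With the block 0 members passed in the second and in the third groups. The alternatives were other floors, scalings and gaps, a filter at the 40th percentile, eBayes without trend and robust, array weights, the replicate number as a block, all 6 groups in the fit, and each array left out.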

Additional observations from a re-analysis of the deposited data

Results flagged for a closer look

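Some members lay wholly below silwet on SA arrays 10 to 12 and wholly above it on a later set of SA arrays, which is a difference between groups of arrays under the same contrast. In the second groups these were AT1G60590 (1.12), AT3G61920 (1.00), 267158_at (0.90), 253040_at (0.83), 261801_at (0.78), AT5G02230 (0.75), 260385_at (0.59), 247182_at (0.56) and 252168_at (0.52), given as log2 differences of SA minus silwet. In the third groups they were AT3G61920 (1.13), 261801_at (0.78) and 255779_at (0.54). The difference between the first and the later groups was not tested, since the first groups chose the members. No later difference passed limma's test over all probe sets.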

How the results depend on the processing

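The rule found 29 probe sets. With the floor at the 10th percentile it found 59, without a floor 65, and with a gap of 0.5 it found 369, all 29 included. With log2 of the value plus 16 it found 6 and with a gap of 1.5 it found 4, all among the 29. Quantile normalization gave 24, with 21 of the 29, median centring 20, with 18 of the 29, and a floor at the 40th percentile 22, all among the 29. With the replicate block, SA at least 1 below silwet within every number, it found 93, and without single arrays 50 to 89; the 29 are kept in both by construction. In SA arrays 13 to 15 minus silwet arrays 4 to 6, limma's 13 calls were 24 without a floor, 25 with log2 of the value plus 16, 30 with the filter, 0 with eBayes without trend and robust, 30 with array weights, 27 with the replicate block, 29 with all 6 groups in the fit, and 0 to 19 without single arrays. The members' median there was 0.43 with array weights and 0.31 to 0.45 without single arrays. In SA arrays 16 to 18 minus silwet arrays 7 to 9, the 0 calls were 5 with array weights, 2 with all 6 groups, and 0 to 29 without single arrays (29 without SA array 16), and the median of 0.27 was 0.41 with array weights. The number wholly above silwet there was 6 with quantile normalization, against 3. In silwet arrays 7 to 9 minus 4 to 6, the 0 calls were 1 with quantile normalization, 1 with the replicate block, and 0 to 10 without single arrays (10 without silwet array 4). In SA arrays 16 to 18 minus 13 to 15 they were 0 to 24 without single arrays (24 without SA array 16). The cause was not tested. No member was called in any of the 21 alternatives of the 5 limma contrasts, with a smallest adjusted p of 0.103. The block changed no other call. Of 1208 later differences of single members under these alternatives, 50 had the other sign, none past the threshold. The filter kept 24 of the 29. The scalings tried for the counts wholly above silwet were chosen after seeing the data.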
